A study of Mus musculus with 4 samples.

Results

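The cycling Cd8+Cd4- cells of the Tal1/Lmo2 thymus series were 2750 of 17544 cells kept from 4 single-cell RNA libraries, 15.7% of the cells. A cell belonged to them when it had at least 1 UMI (a counted RNA molecule) of Cd8a or Cd8b1, the chains of the CD8 coreceptor, 0 UMIs of Cd4, and at least 3 UMIs per 10000 summed over Mki67, Top2a, Pclaf, Rrm2, Tyms and Birc5, genes expressed in dividing cells. Cells entered with over 500 genes detected and under 10% mitochondrial UMIs, and in T-ALL#2 with at least 3416 UMIs. The gate therefore fixed the levels of Cd4, Cd8a, Cd8b1 and the 6 cycling genes, which are given below as descriptions only.

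The series holds thymus libraries of FVB/N mice, 1 library each: wild type at 6 weeks (WT), preleukemic Tal1/Lmo2 at 6 weeks (PL), and 2 Tal1/Lmo2 leukemias at 3 months (T-ALL#1 and T-ALL#2). Every group shares the strain and tissue, and all but WT carry both transgenes, which the study's methods place under the proximal Lck promoter, active in thymocytes. Red cells were lysed and viable single thymic cells were sorted before capture on a 10x Genomics droplet system. The leukemias were older than PL and WT, so that age and disease cannot be told apart.

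In the thymus, T cell progenitors first lack both coreceptors, rearrange the T cell receptor beta chain, and pair it with the invariant pre-TCR alpha chain. Cells that pass this checkpoint divide quickly, and many express CD8 before CD4 on the way to the stage that carries both; this brief stage is called immature single-positive (ISP). Notch1 signalling drives the steps before the checkpoint and normally falls after it, and its activation is a hallmark of T-ALL.

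Before the gated cells can be compared, 3 features of the libraries need to be stated. Between 0 and 9 kept barcodes were shared by any pair of libraries. In the gated cells Xist, which is expressed from the inactive X chromosome of females, stood at 1130.4 CPM (UMIs scaled to a common library total) in WT, 1261 in PL, 1849 and 0 in T-ALL#1 and T-ALL#2, while the summed Y-linked genes were at 0, 0, 0 and 94.6 CPM. The libraries labelled WT and PL therefore went against their label of male, and T-ALL#1 (female) and T-ALL#2 (male) did not. Chemistry of more than 1 version is named for the series without saying which library had which, so that chemistry and group cannot be told apart.

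The share of gated cells was lowest in the library labelled WT. It was 150 of 4220 cells in WT, or 3.55% (3.02 to 4.16, exact binomial 95% interval), and 549 of 5576 cells in PL, or 9.85% (9.08 to 10.7). It was 1361 of 5773 cells in T-ALL#1, or 23.6% (22.5 to 24.7), and 690 of 1975 cells in T-ALL#2, or 34.9% (32.8 to 37.1). These intervals do not overlap, but they cover counting error in 1 library each, not the spread between mice, and no test between groups was made, since WT and PL hold 1 library each. Of all cycling cells, with all UMIs counted, the gated cells were 16.5% in WT, 46.5% in PL, 50.7% and 69.3% in T-ALL#1 and T-ALL#2. The remaining cycling cells of WT were mostly Cd4+Cd8+ (646 cells), and those of PL were mostly without either coreceptor (536 cells).

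**Figure D1:**
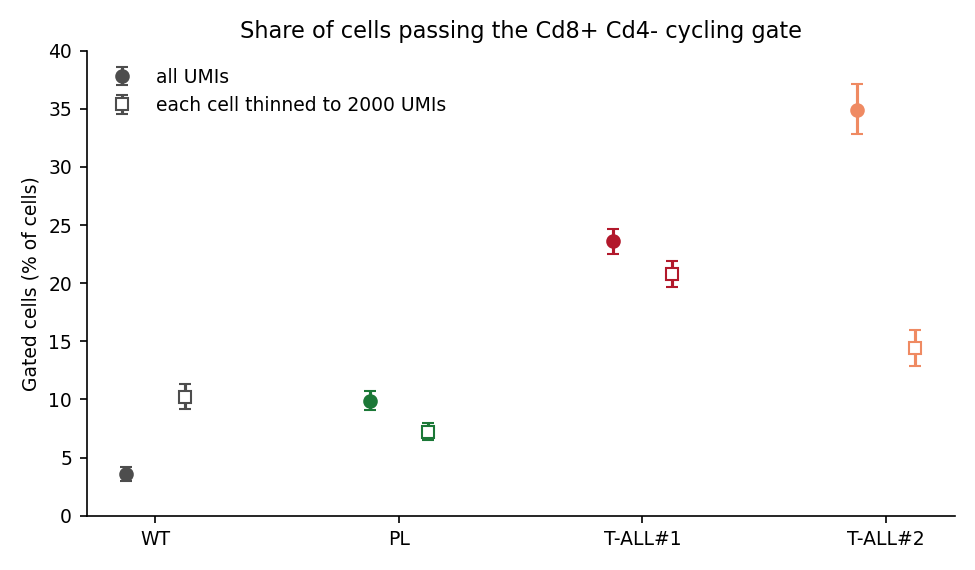
Share of kept cells that passed the gate in each library (vertical axis, %), with all UMIs (filled circles) and after every cell was thinned to 2000 UMIs (open squares). Bars are exact binomial 95% intervals. WT rises from 3.55% to 10.2% with thinning and T-ALL#2 falls from 34.9% to 14.4%.

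A gate that asks for 0 UMIs of a gene depends on how deeply each cell was sequenced, and depth differed between the libraries. The median gated cell had 8953.5 UMIs in WT, 16344 in PL, 19924 and 24095.5 in T-ALL#1 and T-ALL#2. When each cell was thinned to 2000 UMIs and gated again, the share became 10.2% in WT, 7.21% in PL, 20.8% and 14.4% in T-ALL#1 and T-ALL#2. Cells too shallow to thin and left out were 991, 350, 94 and 0. The order of WT and PL turned, and so did that of both leukemias, while both leukemias stayed above PL and WT. At 2000 UMIs, 207 of 522 WT cells (39.7%) that had shown both coreceptors fell into the gate.

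The share of cycling Cd8+ cells that lacked Cd4 could also be read among deep cells alone. Over 20000 UMIs it was 29.4% in WT (22.1 to 37.6), 89.4% in PL (84.3 to 93.3), 69.5% in T-ALL#1 (66.5 to 72.4) and 89.7% in T-ALL#2 (86.8 to 92.1). WT was thus the lowest at this depth, and PL and T-ALL#2 did not differ beyond their counting error.

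The gate rested on few Cd8 UMIs in part of the cells. A single Cd8 UMI admitted 20 WT cells (13.3%), 134 PL cells (24.4%), 184 T-ALL#1 cells (13.5%) and 187 T-ALL#2 cells (27.1%), and both Cd8a and Cd8b1 were detected in 78%, 59.0%, 66.6% and 53.5%. The summed level of Cd8a was 466 CPM in WT, 225 in PL, 218 and 105 in T-ALL#1 and T-ALL#2, and that of Cd8b1 was 423, 260.4, 132 and 82.6 CPM. Cd8 was higher in cycling Cd4+Cd8+ cells of each library, where Cd8a stood at 1116, 573, 435 and 185 CPM. In T-ALL#2, barcodes of 1 to 100 UMIs, which mostly hold free RNA, carried 89.3 CPM of Cd8a and 89.8 of Cd8b1, close to the gated level.

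B or myeloid cells were checked for UMIs of Cd8a or Cd8b1. How much of these came from free RNA and how much from the cells themselves was not tested. At 2000 UMIs a Cd8 UMI was found in 36.4% of 11 B or myeloid cells in WT, 19.0% of 21 in PL, 17.6% of 17 in T-ALL#1 and 0 of 8 in T-ALL#2, which allows a share of up to 37.5%. Over all cells at that depth the shares were 62.4%, 28.3%, 66.1% and 36.9%. Requiring 2 Cd8 UMIs lowered the gated share to 7.44% in PL and 25.5% in T-ALL#2. At the cycling threshold, 18, 76, 104 and 66 gated cells of WT, PL, T-ALL#1 and T-ALL#2 lay between 3 and 4 UMIs per 10000, and 52, 123, 184 and 107 Cd8+Cd4- cells lay just outside, between 2 and 3. A single UMI of the 6 cycling genes admitted 46 WT cells (30.7%), 46 PL cells (8.38%), 56 T-ALL#1 cells (4.11%) and 0 T-ALL#2 cells.

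The summed level of ISP markers did not set the gated cells apart. The summed level of 6 markers, among them Ptcra, Cd24a, Tcf7, Tfrc and Myc, was 1253 CPM in WT, 1247 in PL, 1188 and 819.8 in T-ALL#1 and T-ALL#2. In cycling Cd4+Cd8+ cells it was 1371, 1270.3, 1355 and 849, and in cycling coreceptor-negative cells 1137, 1102, 1035 and 716. The gated sum lay between both neighbours in every library, within a narrow range. The cells are therefore called here by their gate and not as ISP cells. Tcf7 made up most of the gated sum, at 817, 846, 620.3 and 509.8 CPM, and single markers could differ. Ptcra in PL stood at 18.3 CPM, above Cd4+Cd8+ cells (9.38) and coreceptor-negative cells (7.85). In WT and both leukemias it lay between them. Genes of mature CD8 T cells summed to 334, 206, 207 and 197 CPM, and B cell and myeloid markers to at most 5.44 and 6.43 CPM in any library. Of the longer lists of B cell, myeloid and progenitor genes, 0, 1 (Cst3) and 1 (Cpa3) reached a mean of 10 CPM. The γδ T cell markers summed to 494 CPM in WT, 1344 in PL, 148 and 296 in T-ALL#1 and T-ALL#2; PL was the highest. In PL these markers were as high or higher outside the gate, at 1464 CPM in cycling Cd4+Cd8+ and 2301 CPM in cycling coreceptor-negative cells.

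WT gated cells were a mixture by depth. The 69 WT cells of at least 10000 UMIs had a median of 24552 UMIs, and the 81 cells below had a median of 2422. Rag1, a recombinase that opens the receptor genes, stood at 85.4 CPM in the deep and 602 CPM in the shallow cells. Trac, the constant part of the T cell receptor alpha chain, was at 109 and 889.9 CPM, and Cd5, a surface brake on receptor signals that rises with selection, at 48.4 and 329 CPM. Rag1, Trac and Cd5 were thus several times higher in shallow WT cells. So was Cd69, an activation marker, at 11.4 CPM in the deep and 174 CPM in the shallow cells. Ptcra, which encodes the pre-TCR alpha chain, ran the other way, with 93.9 CPM in the deep and 11.4 CPM in the shallow cells. So did Myc, the growth regulator, at 34.1 and 3.79 CPM, and Tcrg-C2, a constant part of the γ chain, at 85.4 and 7.57 CPM. In PL the deep (395) and shallow (154) cells differed less in Rag1, at 143 and 168 CPM, and in Cd5, at 10.6 and 19.0 CPM. In T-ALL#1 the deep (1150) and shallow (211) cells had 60.2 and 313 CPM of Rag1, but 50.4 and 65.2 of Cd5. Ptcra there was at 112 and 348 CPM, the reverse of WT. Hes1 (122 and 343 CPM), Dtx1 (178 and 519) and Il2ra (124 and 309) were also higher in its shallow cells. In T-ALL#2, with 41 shallow cells, Rag1 was at 22.1 and 21.8 CPM and Hes1 at 98.5 and 204. The deep WT cells hold most WT UMIs, so the summed levels below weigh them most. An upper limit on genes per cell left 122 WT gated cells. Of the ratios of PL to WT followed for named genes, 33 then left their counting interval, 1 turned and 9 stayed. For the leukemias to WT 36 left it, 2 turned and 13 stayed. With equal weight per cell, 18 and 15 stayed. The size of ratios to WT below thus depends on this weighting, beyond the counting intervals.

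**Figure D2:**
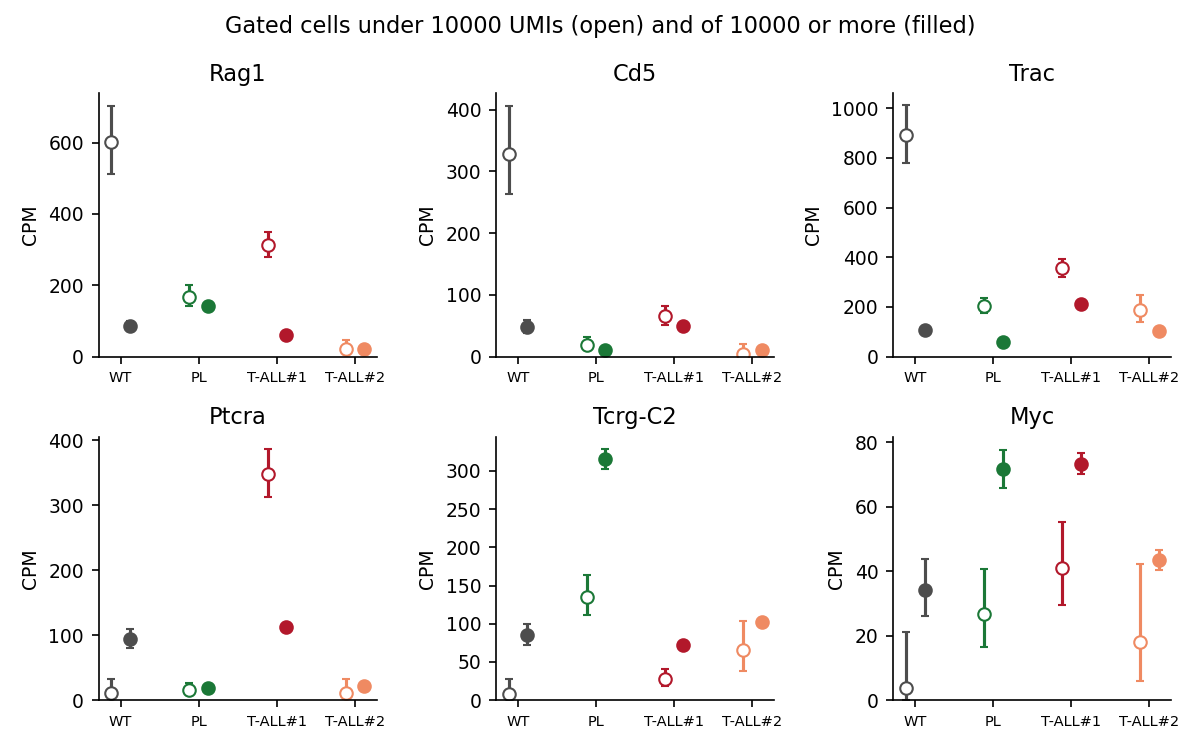
Level of 6 genes (CPM, linear axes from 0) in gated cells of under 10000 UMIs (open) and of 10000 or more (filled), with exact Poisson 95% intervals. In WT, Rag1, Cd5 and Trac are higher in the shallow cells (602, 329 and 889.9 CPM) and Ptcra is higher in the deep cells (93.9 CPM).

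For the comparison of gated cells between libraries, UMIs were summed over the cells of each library and given as CPM with exact Poisson intervals. No test was made on these sums, which for WT and PL come from a single library, and a gene was called when it differed at least 2-fold, for the leukemias in both and in the same direction. The 3 comparisons share libraries and are therefore not independent of each other. Scaling by TMM factors, which correct for a shift of the bulk of genes, would raise PL over WT by 0.04, T-ALL#1 over PL by 0.11 and T-ALL#2 over PL by 0.31 on the log2 scale, and T-ALL#1 and T-ALL#2 over WT by 0.14 and 0.34. The 7267 genes with a mean of at least 10 CPM over the gated sums were compared, with the 9 genes of the rule left out.

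PL gated cells, compared with WT, asked what both transgenes change before leukemia. They had higher Tal1, Cpa3, Stat5a and γδ receptor genes and lower Id3, Hes1, Ptcra and Ccnd2. In all, 161 genes (2.22%) were at least 2-fold higher and 127 (1.75%) at least 2-fold lower.

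Tal1, the transgene's own gene, was not detected in the 150 WT cells, which allows a share of up to 2% of cells with a UMI at a floor of 3 cells. It stood at 0 CPM in WT, 293 in PL (281 to 304), 52.5 and 215 in T-ALL#1 and T-ALL#2. PL was at least 197-fold, T-ALL#1 at least 35.4-fold and T-ALL#2 at least 145-fold higher than WT, against a floor of 3 UMIs. A Tal1 UMI was found in 90.5% of PL, 43.9% of T-ALL#1 and 95.8% of T-ALL#2 gated cells. In T-ALL#2, barcodes of 1 to 100 UMIs held 566 CPM of Tal1, above its gated level, and the part of free RNA in the T-ALL#2 level and share was not tested. Lmo2, its partner, was near the floor throughout, at 0, 2.26, 0.148 and 0 CPM, with 20 UMIs in PL and 4 in T-ALL#1.

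Of the list of TAL1 complex genes and targets, 14 were tested in gated cells. In PL 6 were called higher and 0 lower, with a median log2 ratio of 0.72 against -0.03 over all genes. Among the 6 are Tal1, the transgene itself, and Cpa3, which reached the mean of 10 CPM only through PL. The list was chosen with earlier results of these data known, so its count and median are descriptions. Cpa3, a mast cell protease, was at 0 CPM in WT and 188 in PL, at least 127-fold higher, with UMIs in 217 of 549 PL cells. It was almost gone from the leukemias, at 0.111 CPM (3 UMIs) and 0.535 CPM (9 UMIs). PL exceeded T-ALL#1 by 1688-fold (577 to 8193) and T-ALL#2 by 351-fold (184 to 769). Runx1, a member of the TAL1 complex, was at 88.5 CPM in WT and 222, 214 and 163 in the transgenic libraries. Gimap6 and Gimap7, GTPases of lymphocytes, were 2.28- and 2.41-fold higher in PL than in WT, but with every cell weighted equally the ratio of Gimap6 was 0.886, below 1.

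The γδ genes of PL were called together. All 5 that were tested (Trdc, Tcrg-C1, Tcrg-C2, Tcrg-C4 and Cd163l1) were at least 2-fold above WT, with a median log2 ratio of 2.21. Trdc, the δ chain constant part, was at 357 CPM in WT, 735 in PL, 0.297 and 117 in T-ALL#1 and T-ALL#2. In T-ALL#1 all 8 Trdc UMIs came from 1 cell. Tcrg-C4 was at 30.2, 166, 43.9 and 59.1 CPM, 5.51-fold (4.26 to 7.24) higher in PL than in WT. In gated cells of 10000 or more UMIs the ratios of PL to WT were 1.94 for Trdc and 5.14 for Tcrg-C4, so Trdc then missed 2-fold, as it did with an upper limit on genes (1.90) and with the gate on thinned counts (1.56).

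Stat5a and Stat3 were among the 10 largest ratios of genes of at least 100 CPM. Stat5a, which relays interleukin signals, was at 34.1 CPM in WT, 231 in PL and 132 in T-ALL#1, with 505 UMIs in T-ALL#2, and was 6.78-fold (5.33 to 8.74) higher in PL than in WT. Its neighbour Stat3 was at 32.2, 114, 51.8 and 27.3 CPM. T-ALL#2 did not differ from WT in either beyond counting error, with a 95% interval of the ratio of 0.683 to 1.15 for Stat5a and 0.654 to 1.12 for Stat3. The annotated ends of the genes overlap on chromosome 11 between 100885098 and 100885169 (GRCm38), on opposite strands. Other genes of at least 100 CPM that led in PL were 1700097N02Rik (56.4 and 265 CPM in WT and PL) and Tubb2b, a β-tubulin (52.9 and 176 CPM).

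Of 9 tested Notch list genes, Myc and Notch3 were higher and Hes1 and Ptcra lower in PL than in WT, with a median log2 ratio of 0.35. Of 19 tested transcription factors 1, Runx1, was higher and 4 were lower, Id2, Id3 and Ikzf3 among them. Id3, an inhibitor of E proteins that is induced by receptor signals, was at 173 CPM in WT, 12.2 in PL, 88.8 and 91.7 in T-ALL#1 and T-ALL#2, 14.1-fold lower in PL (11.4 to 17.7). Id2, its relative, was at 53.4, 7.80, 67.0 and 29.0 CPM. Id2 and Id3 in PL lay below every other library. Ptcra was 4.54-fold lower in PL than in WT, and Trac 2.92-fold lower, with 211 CPM in WT and 72.1 in PL. In cells of 10000 or more UMIs the ratio of Trac was 0.545, short of a call.

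Ccnd2, a D-type cyclin that carries cells into S phase, was at 99.4 CPM in WT, 9.95 in PL, 6.90 and 20.2 in T-ALL#1 and T-ALL#2, 10.0-fold lower in PL than in WT. Of the mature or selected T cell list, 5 of 9 tested genes were lower in PL (Cd5, Cd6, Cd69, Klf2 and Tesc) and 1 was higher. Cd5 was at 85.1, 11.3, 50.9 and 11.4 CPM. Cd69, an early activation marker, was at 32.6 CPM in WT and 14.7 in PL, but its ratio was 0.960 in cells of 10000 or more UMIs. Cd52, a lymphocyte surface peptide, was at 444 CPM in WT and 76.1, 47.8 and 41.5 in the transgenic libraries. Cd74 led the genes lower in PL with 340.3 CPM in WT, but 684 of its 688 WT UMIs came from 1 cell, as did most UMIs of H2-Aa, H2-Ab1 and Cst3.

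None of the 34 DNA replication and 30 mitosis genes tested was called in any of the 3 comparisons of libraries, with median log2 ratios of PL to WT of -0.18 and -0.16. The mitosis list had medians of 0.08 over PL and -0.09 over WT in T-ALL#1, and of -0.79 and -0.95 in T-ALL#2. The gate chose cells by other genes of dividing cells, so similar levels of these lists were in part set by it. Over all genes only 1.71% to 3.39% were called in each direction, so the absence of calls in lists of this size says little.

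Both leukemias, compared with PL, asked what differs once disease is present. In gated cells 124 genes (1.71%) were at least 2-fold higher in both and 216 (2.97%) lower in both, and with TMM factors the split was 175 higher and 164 lower. Of the lists, 4 of 9 Notch genes were higher, and 4 of 5 γδ genes and 2 each of 8 recombination genes and 8 cytokine and homing receptors were lower.

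**Figure D3:**
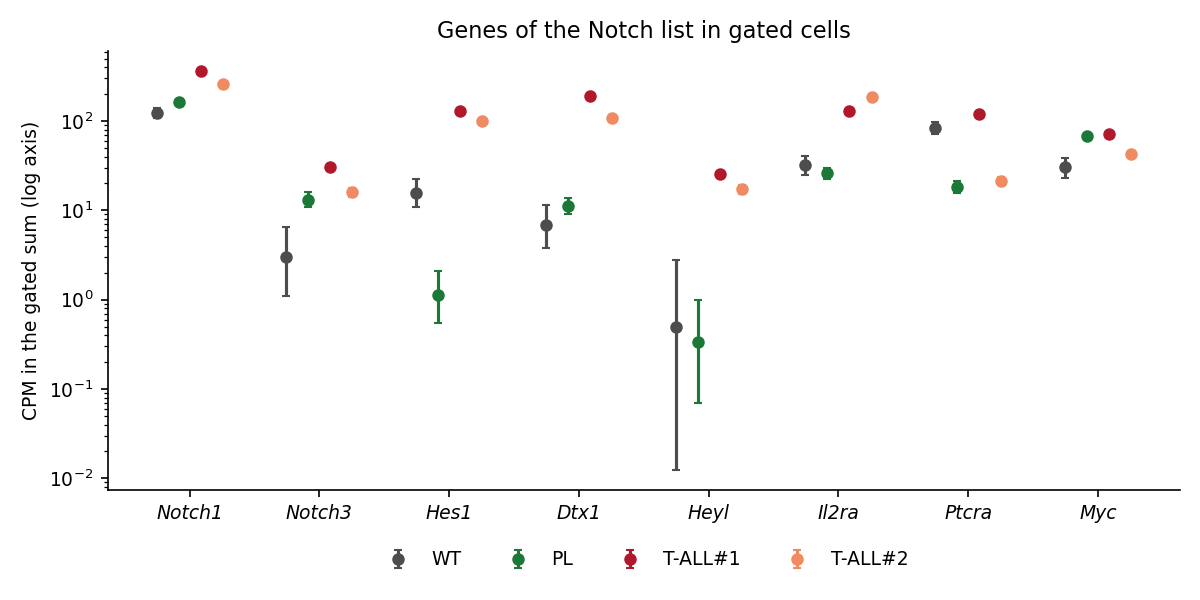
Level of 8 genes of the Notch list in the gated sum of each library (CPM, log axis), with exact Poisson 95% intervals. Hes1, Dtx1, Heyl and Il2ra are higher in both leukemias than in PL and WT, while Ptcra is high in WT and T-ALL#1 (83.1 and 121 CPM) and low in PL and T-ALL#2 (18.3 and 21.4 CPM).

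Of 9 tested genes of the Notch list, 4 were higher in both leukemias than in PL (Dtx1, Hes1, Heyl and Il2ra) and 0 lower. The mean of 10 CPM includes the leukemias, so a gene high in them passes it more easily. Heyl passed only through them, and its call is no support of its own. Neither the counts nor the medians of the list were corrected for this. The list had median log2 ratios of 2.33 and 0.70 in T-ALL#1 and T-ALL#2, against -0.05 and -0.31 over all genes. Hes1, a repressor that Notch induces directly, lies on chromosome 16 at 30064384 to 30067796 (GRCm38). It was at 15.8 CPM in WT (10.8 to 22.3), 1.13 in PL (0.542 to 2.08), 130.3 and 100.2 in T-ALL#1 and T-ALL#2. The leukemias exceeded PL by 115- and 88.6-fold and WT by 8.23- and 6.33-fold. PL itself was 14.0-fold below WT (6.72 to 31.9), the lowest of the 4 libraries, although 11 of the 32 WT UMIs came from 1 cell. A Hes1 UMI was found in 8.67% of WT, 1.46% of PL, 72.4% of T-ALL#1 and 72.3% of T-ALL#2 gated cells. After thinning to 2000 UMIs these shares were 2.50%, 0 of 539 cells (which allows up to 0.557%), 22.6% and 18.4%, so that both leukemias remained far above WT and PL.

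Dtx1, an E3 ligase of the Notch pathway, was at 6.93 CPM in WT, 11.2 in PL, 191 and 107 in T-ALL#1 and T-ALL#2. It was 17.0- and 9.59-fold above PL and 27.5- and 15.5-fold above WT, with UMIs in 86.8% and 79.9% of leukemic gated cells. Heyl, a Hes relative, had 1 UMI in WT and 3 in PL against 25.5 CPM and 17.3 in T-ALL#1 and T-ALL#2, which is 75.1-fold (25.6 to 365) and 50.9-fold (17.2 to 248) above PL. Il2ra, which encodes CD25 and marks early progenitors before the checkpoint, was at 32.2, 26.0, 131 and 185 CPM. The leukemias were thus 5.04- and 7.11-fold above PL, in cells that also had Cd8 UMIs. In T-ALL#2, however, barcodes of 1 to 100 UMIs held 133 CPM of Il2ra and 95.3 of Hes1, so free RNA carried both genes at close to the level of its gated cells.

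Notch1, the receptor, was at 123 CPM in WT, 162 in PL, 359 and 262 in T-ALL#1 and T-ALL#2. It was at least 2-fold above WT in both leukemias (2.92 and 2.14), but above PL by 2.21-fold and 1.62-fold in T-ALL#1 and T-ALL#2, so it was not called against PL. In cells of 10000 or more UMIs the smaller ratio to WT was 1.99. Notch3 was at 2.97, 13.2, 30.4 and 15.9 CPM, 4.46-fold (1.99 to 12.4) higher in PL than in WT on 6 WT UMIs. Myc was at 30.2, 67.7, 72.1 and 43.0 CPM. PL and T-ALL#1 did not differ in Myc beyond counting error (ratio 1.07, 0.972 to 1.17). Ptcra separated both leukemias, at 121 CPM and 21.4 in T-ALL#1 and T-ALL#2.

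The promoters of 3 of these genes are shown because their products define the group: Dtx1 and Il2ra were high in both leukemias, and Ptcra only in T-ALL#1 of the 2. Each sequence is the 250 bases before the RefSeq start (GRCm38.p6), read 5′ to 3′ on the gene's strand, and capitals mark TGGGAA or its reverse complement TTCCCA, the core that the Notch partner RBPJ binds. Dtx1 is chr5:120711670-120711919 (- strand), Il2ra is chr2:11642542-11642791 (+ strand) and Ptcra is chr17:46763713-46763962 (- strand).
Dtx1: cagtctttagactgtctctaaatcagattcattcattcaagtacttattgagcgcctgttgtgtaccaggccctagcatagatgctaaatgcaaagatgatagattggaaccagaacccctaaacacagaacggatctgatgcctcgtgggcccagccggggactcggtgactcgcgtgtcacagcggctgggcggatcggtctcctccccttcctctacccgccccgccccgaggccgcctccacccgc
Il2ra: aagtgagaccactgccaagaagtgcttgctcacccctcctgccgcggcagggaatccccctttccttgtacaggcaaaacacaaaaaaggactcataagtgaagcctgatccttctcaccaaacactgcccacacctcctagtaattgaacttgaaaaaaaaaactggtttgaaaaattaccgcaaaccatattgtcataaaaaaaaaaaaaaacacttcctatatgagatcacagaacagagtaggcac
Ptcra: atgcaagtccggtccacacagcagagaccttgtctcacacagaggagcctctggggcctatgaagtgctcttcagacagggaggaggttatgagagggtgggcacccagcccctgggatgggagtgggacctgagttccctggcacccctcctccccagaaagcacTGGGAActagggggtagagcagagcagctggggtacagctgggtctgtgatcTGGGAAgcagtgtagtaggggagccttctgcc
The core stood 2 times in the Ptcra window, with its first base 84 and 32 bases before the start, and in neither of the other windows. Of 32851 windows of this length 21.6% hold the core on either strand. Of the 12 genes of the Notch list 8 had a window, and 3 of their 9 windows held it. A match says only that the letters are there.

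Genes outside the Notch list were also higher in both leukemias than in PL, and of those at least 100 CPM Gm266 had the largest ratio. Gm266, an uncharacterised gene, was at 0 CPM in WT, 1.81 in PL, 302 and 221 in T-ALL#1 and T-ALL#2, and had UMIs in 87.5% and 93.6% of leukemic gated cells against 1.09% in PL. H1f0, a linker histone of slowly dividing cells, was at 25.7, 2.83, 129 and 79.2 CPM, although all these cells passed the cycling threshold. Wdr25 was at 1.48, 11.1, 131 and 95.8 CPM, and Agfg1 at 42.5, 53.0, 375 and 332 CPM. Of 11 stress and early response genes, both leukemias exceeded PL in 3 (Egr1, Fos and Fosb) and lay below it in 1, Dnajb1: Fosb was at 1.98, 2.71, 67.3 and 49.0 CPM, and Egr1 at 41.1, 6.44, 27.1 and 29.9 CPM. Egr1 in the leukemias did not exceed WT.

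Of 13 tested glycolysis genes, Pkm and Tpi1 were called over PL and 0 below it, with median log2 ratios of 0.81 and 0.83. Pkm, the last enzyme of the pathway, was at 537 CPM in WT, 454 in PL, 1234 and 1178 in T-ALL#1 and T-ALL#2. Of the 22 genes of Myc-linked growth and ribosome biogenesis, 0 were called over PL in either direction.

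Lower in both leukemias than in PL were Rag1 and Rag2, which cut the receptor genes, called from 8 tested recombination genes. Rag1 was at 153 CPM in WT, 145 in PL, 69.9 and 22.1 in T-ALL#1 and T-ALL#2. Rag2 was at 26.7, 19.8, 1.48 and 2.32 CPM. Rag2 was lower in T-ALL#1 than in T-ALL#2, and Rag1 the reverse. With TMM factors the larger ratio of Rag1 to PL was 0.518, just short of 2-fold, and it was 0.722 with equal weight per cell and 0.754 with the gate on thinned counts. In cells of 10000 or more UMIs its ratio to WT was 0.706.

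Ccr9, a receptor that guides progenitors to the thymus and thymocytes to the gut, was at 217 CPM in WT, 225 in PL, 14.6 and 4.22 in T-ALL#1 and T-ALL#2. S100a10 and its partner Anxa2, which link membranes to the cytoskeleton, were at 173, 263, 5.87 and 0 CPM and at 343, 346, 10.2 and 35.9 CPM. All 3 were within about 1.52-fold between WT and PL and far lower in both leukemias. Of the 8 cytokine and homing receptors tested Ccr9 and Itga4 were called lower, of 13 receptor chain and signalling genes 2, Trbc1 among them, and of 9 Bcl2 family genes Bcl2. Bcl2, which protects from cell death, was at 51.0, 43.2, 16.9 and 13.1 CPM. The histone gene Hist1h2ap was at 6166, 4442, 327 and 145 CPM, a 13.6- and 30.7-fold difference from PL, and Hist1h2ap belongs to a family of near-identical copies among which reads may be split. Vim, an intermediate filament, was at 215, 552, 142 and 110.1 CPM.

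Against WT, 149 genes (2.05%) were at least 2-fold higher in the gated cells of both leukemias and 246 (3.39%) lower, and with TMM factors 224 and 161. Of the Notch list 6 of 9 were higher (Dtx1, Hes1, Heyl, Il2ra, Notch1 and Notch3) and 0 lower, with median log2 ratios of 2.03 and 2.42 against -0.07 and -0.33 over all genes. Heyl was again among the tested genes only through its leukemic level. Lef1, a T cell factor downstream of Wnt, was at 261 CPM in WT, 327 in PL, 685 and 545 in T-ALL#1 and T-ALL#2. Tfrc, the transferrin receptor that feeds iron to dividing cells, was at 51.0, 82.2, 179.8 and 137 CPM. Runx3, a regulator of CD8 T cells, was lower, at 31.7, 21.8, 4.68 and 5.24 CPM. Ccne1, Ccne2 and E2f2, which act at the entry to S phase, were called lower in the leukemias, E2f2 at 141, 73.1, 60.8 and 33.4 CPM.

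T cell receptor beta segments showed how varied the gated cells of each library were. In WT 13 Trbv segments shared 81 UMIs, with Trbv2 first at 24.7% (15.8 to 35.5). In PL 11 segments shared 442 UMIs, and Trbv19 held 51.8% and Trbv2 21.7%. In T-ALL#1 Trbv2 (61.2%) and Trbv19 (34.5%) held nearly all of 1977 UMIs, and in T-ALL#2 Trbv5 (53.8%) and Trbv26 (40.1%) nearly all of 314. A pair of segments thus dominated each leukemia, and a different pair in each.

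**Figure D4:**
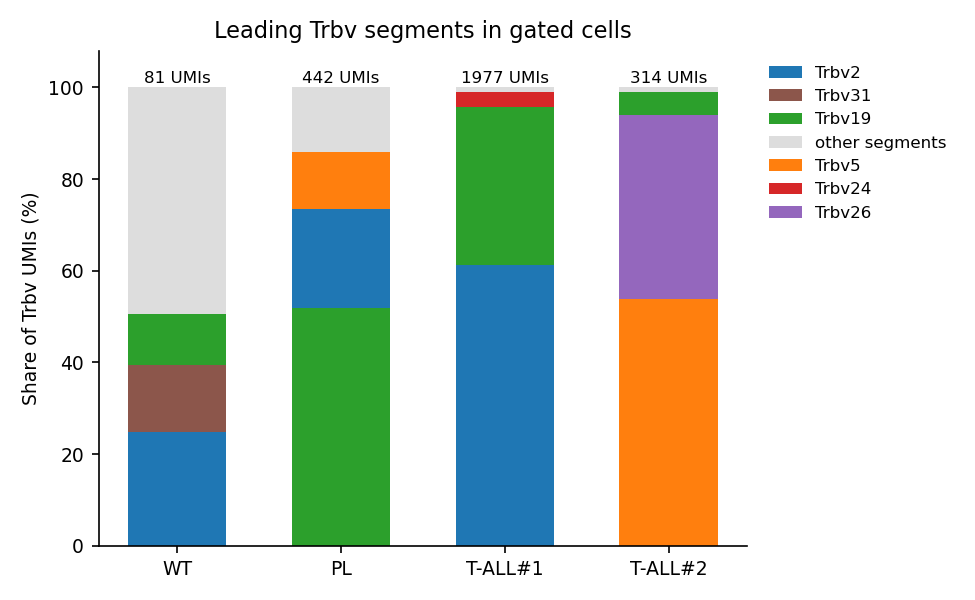
Share of Trbv UMIs in gated cells by segment (vertical axis, %) for the leading 3 segments of each library, with the remaining segments in grey and the number of Trbv UMIs above each bar. The leading pair holds 61.2% and 34.5% in T-ALL#1 and 53.8% and 40.1% in T-ALL#2.

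The pairs were arranged differently within cells. In T-ALL#1, 409 gated cells had UMIs of Trbv2 without Trbv19, 174 of Trbv19 without Trbv2, and 315 of both. In T-ALL#2, 142 had Trbv5 without Trbv26, 61 had Trbv26 without Trbv5, and 1 had both. In PL, 125 had Trbv19 without Trbv2, 69 the reverse and 2 both. The same leading pair was found outside the gate: in T-ALL#1 Trbv2 and Trbv19 held 65.1% and 33.9% of Trbv UMIs in cycling Cd4+Cd8+ cells, and in T-ALL#2 Trbv26 and Trbv5 held 47.8% and 37.0% of 46 UMIs. Trbc1, 1 of 2 constant segments, had 2 UMIs in all T-ALL#2 gated cells (0.119 CPM) against 981 CPM in T-ALL#1, 2458 in PL and 2168 in WT, while Trbc2 was at 3342 CPM in T-ALL#2.

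Cells grouped by segment differed in T-ALL#2 and not in T-ALL#1 at 2-fold. Among genes of at least 100 CPM, 0 of 1545 differed between Trbv2-only and Trbv19-only cells of T-ALL#1, whereas in T-ALL#2 10 of 1435 were higher in Trbv5-only and 11 in Trbv26-only cells. Trbv5-only cells had more Tcrg-C2 (113 against 16.0 CPM), Trdc (128 against 19.6), Vim (132 against 50.2) and Plac8 (476 against 171). Trbv26-only cells had more Cd24a (181 against 80.9 CPM), which encodes the heat-stable antigen of immature thymocytes, and Ldhb (284 against 131). In PL, 8 of 1626 genes were higher in Trbv19-only (Trbv19 itself among them) and 5 in Trbv2-only cells: Trbc1 was at 3542 against 243 CPM and Trdc at 919 against 343, and Ly6d, a surface antigen of early lymphoid cells, at 28.3 against 689. Cells were grouped here by what was measured in them, in 1 library each, so these are descriptions.

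Within each library, gated cells were compared with cycling Cd4+Cd8+ cells, the next stage by coreceptor. This comparison had 4 libraries on each side, with the library as a block, and was tested with edgeR on summed counts. The Cd4+Cd8+ sums held 646 cells in WT, 85 in PL, 1005 and 106 in T-ALL#1 and T-ALL#2. In gated cells 332 of 10521 genes (3.16%) were higher and 384 (3.65%) lower at an adjusted p under 0.05. Without PL only 3 were higher and 44 lower, without T-ALL#2 85 and 163, and among cells of 10000 or more UMIs 44 and 135, so the number of calls rests on few libraries. The p-values measure the spread of the difference among WT, PL and both leukemias, which are not replicates of 1 condition.

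The lists with most members higher in gated than in cycling Cd4+Cd8+ cells were those of growth, glycolysis and replication. Of 22 genes of Myc-linked growth, 11 were higher and 0 lower, with a median log2 difference of 0.44 against 0.00 over all genes. Nop58, which builds ribosomal RNA, was at 382.9 CPM in WT, 379.1 in PL, 379.0 and 381.1 in T-ALL#1 and T-ALL#2 gated cells, and at 234.9, 278.4, 331.8 and 335.6 in Cd4+Cd8+ cells. Its log2 difference was 0.44 (SE 0.09, edgeR adjusted p = 0.028). Glycolysis had 6 of 14 higher and 0 lower, among them Ldha, which makes lactate, at 0.47 (SE 0.08, edgeR adjusted p = 0.0096). Without PL neither Nop58 (0.42) nor Ldha (0.50) was called.

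Of 34 replication genes 9 were higher and 0 lower. Ung, which removes uracil from DNA, had a log2 difference of 0.67 (SE 0.10, edgeR adjusted p = 0.0060), and Mcm6, a part of the replication helicase, 0.35 (SE 0.07, edgeR adjusted p = 0.016). Without PL neither Ung (0.59) nor Mcm6 (0.36) was called. Of 30 mitosis genes 8 were lower and 0 higher, with a median of -0.53. These 8 calls did not survive the change of depth: after thinning to 2000 UMIs and gating again, all 8 were higher in the gated cells. Per library the ratio of mitosis to replication UMIs was 0.484, 0.511, 0.482 and 0.356 in gated cells of WT, PL, T-ALL#1 and T-ALL#2, and 1.09, 1.18, 0.669 and 0.446 in Cd4+Cd8+ cells. After thinning, mitosis UMIs exceeded replication UMIs in 35.9% of WT and 22.4% of T-ALL#1 gated cells against 32.3% and 13.2% of Cd4+Cd8+ cells. PL and T-ALL#2 went the other way, with 24.7% and 15.1% of gated cells. Their Cd4+Cd8+ cells stood at 47.1% of only 17 cells and 31.2% of only 16.

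**Figure D5:**
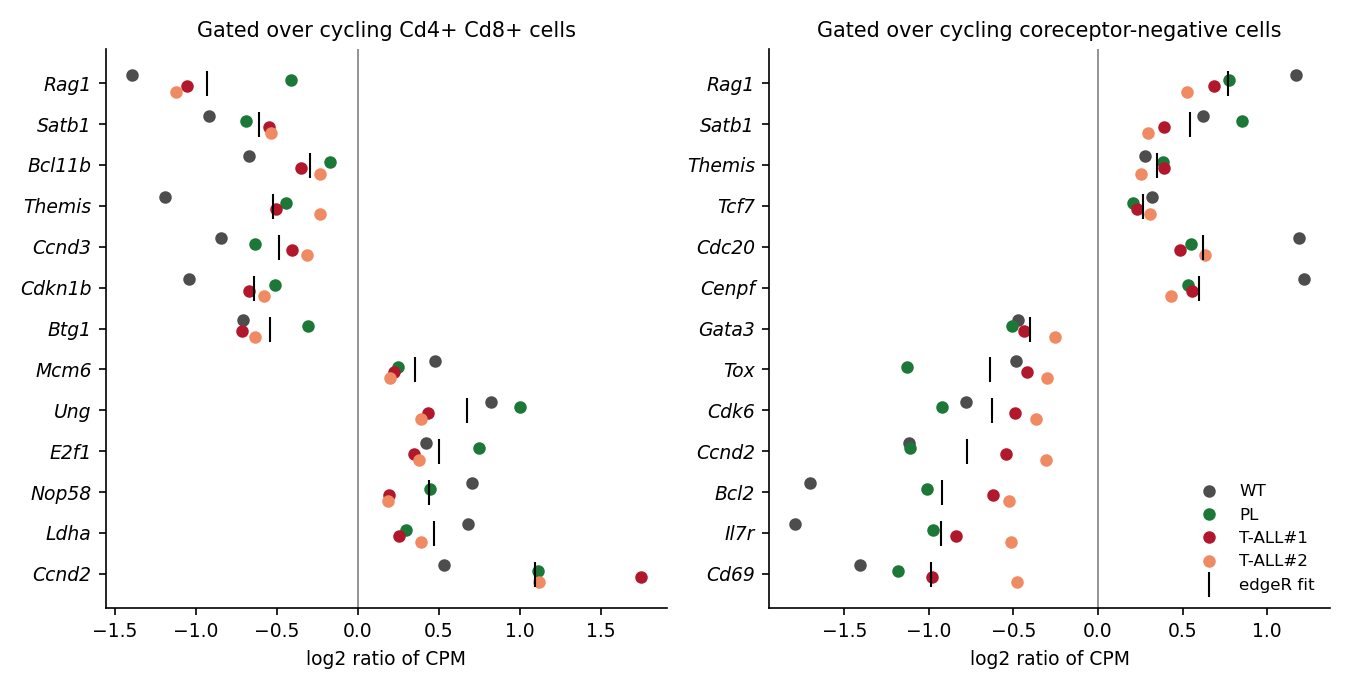
Log2 ratio of CPM (horizontal axis) of gated cells to cycling Cd4+Cd8+ cells (left) and to cycling coreceptor-negative cells (right) for 13 genes each; points are the 4 libraries and the black bar is the edgeR estimate. Rag1 and Satb1 are lower than in Cd4+Cd8+ cells and higher than in coreceptor-negative cells in all 4 libraries.

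Regulators of the Cd4+Cd8+ stage were lower in gated cells: 5 of 19 tested transcription factors fell, among them Bcl11b, Satb1, Tcf12 and Themis, and 0 rose. Satb1, a chromatin organiser of thymocytes, differed by -0.61 (SE 0.07, edgeR adjusted p = 0.00088). Rag1 was at 152.9, 145.0, 69.9 and 22.1 CPM in gated and 402.8, 193.3, 145.8 and 48.8 CPM in Cd4+Cd8+ cells, a difference of -0.93 (SE 0.14, edgeR adjusted p = 0.015). Satb1 and Rag1 were lower in every library and stayed called without any 1 library, in cells of 10000 or more UMIs and after thinning.

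Cell cycle regulators split. Ccnd2 was at 99.4, 9.95, 6.90 and 20.2 CPM in gated and 68.7, 4.33, 1.71 and 9.04 CPM in Cd4+Cd8+ cells, a log2 difference of 1.09 (SE 0.20, edgeR adjusted p = 0.019), whereas Ccnd3, the D cyclin of the pre-TCR checkpoint, differed by -0.49 (SE 0.08, edgeR adjusted p = 0.0051). Cdkn1b, an inhibitor that holds cells in G1, was lower by -0.64 (SE 0.08, edgeR adjusted p = 0.0019), and so was Btg1, an antiproliferative gene, by -0.54 (SE 0.07, edgeR adjusted p = 0.0021). Ccnd2 lost its call in cells of 10000 or more UMIs (0.72), without PL and without T-ALL#2 (1.08 in each), and Ccnd3 after thinning (-0.32) and without PL (-0.46). Nkg7, a granule protein of cytotoxic cells, had the largest difference, 3.97 (SE 0.40, edgeR adjusted p = 0.00035). It stood at 26.2 and 1.65 CPM in WT, 11.4 and 1.44 in PL, and had 14 and 2 UMIs in T-ALL#1 and T-ALL#2 gated cells against 0 in their Cd4+Cd8+ cells, so that the estimate depends on the prior count. DESeq2 did not call it (3.70).

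Of the Notch list, 0 of 10 tested genes passed in either direction, with a median of 0.10. Over all genes only 3.16% were higher and 3.65% lower, so the absence of calls in a list of this size says little. Whether Hes1, Dtx1 and Il2ra differ between gated and Cd4+Cd8+ cells of the same thymus is not settled by it. Of the mature list 1 rose, Nkg7, and 1 fell, Cd27.

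Against cycling cells without Cd4 or Cd8 UMIs, the stage before by coreceptor, fewer genes differed: 53 of 10239 (0.518%) were higher in gated cells and 85 (0.830%) lower by edgeR. The coreceptor-negative sums held only 34 cells in WT, 536 in PL, 258 and 182 in T-ALL#1 and T-ALL#2. In this comparison the order of stage genes turned. Rag1 was at 67.6, 84.4, 43.2 and 15.2 CPM in coreceptor-negative cells of WT, PL, T-ALL#1 and T-ALL#2, with a difference of 0.77 (SE 0.09, edgeR adjusted p = 0.00022). Satb1 (0.54), Themis (0.35) and Tcf7 (0.27) were higher too, and Gata3 (-0.40) and Tox (-0.64) were lower. Rag1 thus lay between both neighbours in all 4 libraries, and kept its calls without any 1 library.

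Several genes were lower in gated than in coreceptor-negative cells, from lists of which few members passed: 1 of 10 tested Bcl2 family genes, and 0 of 2 tested progenitor genes. Il7r, the interleukin-7 receptor that sustains early thymocytes, was at 23.7, 19.1, 31.0 and 12.1 CPM in gated and 83.5, 38.1, 55.9 and 17.6 CPM in coreceptor-negative cells, a log2 difference of -0.93 (SE 0.14, edgeR adjusted p = 0.0021). Bcl2, which that receptor supports, differed by -0.92 (SE 0.15, edgeR adjusted p = 0.0099), and Cd69 by -0.99 (SE 0.14, edgeR adjusted p = 0.0013). Cdk6 differed by -0.63 (SE 0.08, edgeR adjusted p = 0.00055) and Ccnd2 by -0.77 (SE 0.14, edgeR adjusted p = 0.0094). After thinning to 2000 UMIs Il7r (-1.47), Cd69 (-0.23) and Ccnd2 (-1.30) were not called. Without PL neither Bcl2 (-0.89) nor Ccnd2 (-0.68) was.

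Mitosis genes were higher in gated than in coreceptor-negative cells, with 10 of 30 called and 0 lower (median 0.35); Cdc20, which triggers chromosome separation, differed by 0.62 (SE 0.09, edgeR adjusted p = 0.00094) and Cenpf, a kinetochore protein, by 0.60 (SE 0.09, edgeR adjusted p = 0.0016). Cdc20 lost its call after thinning (0.53). Of 34 replication genes 0 were called, and of 10 Notch genes 0. Among all genes with the same sign in every library, Fas (1.07), a death receptor, and Cd200 (0.96), a surface glycoprotein, were among those higher, and Cd93 (-1.66), a receptor of early progenitors, and Ifitm3 (-1.43), an interferon-induced gene, were among those lower.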

How the data were processed

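RNA of viable thymic cells in 4 libraries was captured and counted by the authors with Cell Ranger against mm10; the matrix headers name version 3.0.2 in 3 libraries and 4 in 1. The deposited values are raw counts of UMIs per gene and barcode. The T-ALL#2 matrix held 1791965 barcodes, so its lower UMI limit of 3416 was applied. Cells of over 500 genes and under 10% mitochondrial UMIs were kept; no doublet caller was run. The members and gene lists were chosen with earlier results of these data known. UMIs of gated cells were summed per library (2021482 in WT to 26937022 in T-ALL#1) and given as CPM. Genes with a mean of 10 CPM over the 4 sums were compared by ratio at 2-fold, without a test. Intervals are exact Poisson or binomial at 95% and cover counting error only; the limit given with a share or level of 0 is 3 counts. Gated cells and both other cycling gates were compared within libraries by edgeR 4.0.16 (R 4.3.3; quasi-likelihood, robust, TMM, filterByExpr, Benjamini-Hochberg over all genes, threshold 0.05) on summed counts. Library was a block, since both sums come from 1 animal; deviations of the paired sums from their gate means correlated at 0.67 to 0.931. The scripts were tested on simulated data. Thinning drew 2000 UMIs from each cell. Named genes were members of 18 lists and, for each comparison, the 10 largest differences each way (for ratios, among genes of at least 100 CPM; for edgeR, with 1 sign in all libraries). Genes chosen by Trbv segment and the promoters were picked after their values were seen. Rule genes, Xist and Y-linked genes were left out of counts. Promoter sequences are RefSeq's (GRCm38.p6). Some genes of the lists are not reported here.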

Additional observations from a re-analysis of the deposited data

Results flagged for a closer look

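Below the T-ALL#2 limit of 3416 UMIs, 70 barcodes met the other filters and 12 of them (17.1%) passed the gate, with a median of 2562 UMIs; they are in no comparison above.

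For 2 genes of the lists the ratio between gates within a library had 1 sign in WT and PL and the opposite sign in both leukemias, with a counting interval that left out 1 in each of the 4 libraries, and the difference between these groups was not tested. More list genes had such signs without meeting that limit in every library. Il2ra in gated over coreceptor-negative cells had log2 ratios of -2.67 in WT, -1.67 in PL, and 0.75 and 0.06 in T-ALL#1 and T-ALL#2. Ptcra in gated over cycling Cd4+Cd8+ cells had log2 ratios of 0.36 in WT (83.1 against 64.8 CPM) and 0.97 in PL (18.3 against 9.38), and of -0.49 in T-ALL#1 (121 against 170.3) and -0.78 in T-ALL#2 (21.4 against 36.6). Ccne2, a cyclin of S phase entry, in gated over cycling coreceptor-negative cells had log2 ratios of 1.07 in WT and 0.43 in PL, and of -0.30 in T-ALL#1 and -0.35 in T-ALL#2.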

How the results depend on the processing

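The share of gated cells depended most on depth: thinned to 2000 UMIs it was 10.2% in WT, 7.21% in PL, 20.8% in T-ALL#1 and 14.4% in T-ALL#2, at a cycling threshold of 6 per 10000 it was 2.63%, 7.28%, 19.3% and 27.2%, with at least 2 Cd8 UMIs 7.44% in PL, 20.4% in T-ALL#1 and 25.5% in T-ALL#2, and with an upper limit on genes 2.96% in WT. Counts of genes 2-fold higher and lower in PL than in WT were 283 and 645 with equal weight per cell, 37 and 27 at 50 CPM and 641 and 688 at 1 CPM, and 297 lower with the upper limit. For the leukemias over PL the lower count was 370 with equal weight, and the counts were 24 and 50 at 50 CPM and 437 and 775 at 1 CPM; with 1 leukemia left out 176 to 197 were higher and 283 to 829 lower. For the leukemias over WT they were 224 and 161 with TMM factors, 280 and 1170 with equal weight, 34 and 57 at 50 CPM, 468 and 917 at 1 CPM and 547 lower with the upper limit; with 1 leukemia left out 215 to 233 were higher and 305 to 994 lower. The cause of these shifts was not tested beyond the fewer or more genes that each CPM limit admits.

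Without the replicate block edgeR called 0 and 0 genes against Cd4+Cd8+ cells (283 at an unadjusted p under 0.05; DESeq2 with the block 335 and 287) and 0 and 0 against coreceptor-negative cells (62 at an unadjusted p; DESeq2 with the block 42 and 56). Against Cd4+Cd8+ cells the counts were 864 and 629 over every gene, 839 higher after thinning and 44 and 135 in cells of 10000 or more UMIs (an alternative added after seeing the data), and leaving out 1 library gave 3 to 268 higher and 44 to 306 lower. Against coreceptor-negative cells they were 196 and 214 over every gene, 30 and 52 with the upper limit and 33 and 15 after thinning, and leaving out 1 library gave 19 to 90 higher and 27 to 109 lower.

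Directions that turned were these. The ratio of PL to WT was 0.886 for Gimap6 (equal weight), 1.06 for Ccnd1 (upper limit) and 1.13 for Rrp12 (gate on thinned counts). The ratio of the leukemias to WT was 1.34 for H2-Aa and 3.37 for H2-Ab1 (upper limit), 1.18 for H2-Ab1 (gate on thinned counts), and 1.32 for Cd69 and 1.23 for Gimap6 (10000 or more UMIs); without the 1 WT cell rich in Cd74 (added after seeing the data) it was 2.92 for H2-Ab1, and 0.679 for H2-Aa, where both leukemias then took opposite directions. After thinning, the log2 differences from Cd4+Cd8+ cells were 1.06 for Ccna2, 0.52 for Ccnb2, 0.53 for Cenpa, 0.64 for Cenpe, 0.61 for Hmmr, 0.90 for Knl1, 0.84 for Nek2 and 0.87 for Tpx2.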

Other observations

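Cell surface genes split the gated cells within a library. In T-ALL#1, 880 of 1361 gated cells had an Il2ra UMI, and in them Dtx1 stood at 223 CPM and Hes1 at 135, against 127 and 121 CPM in the 481 cells without one. In T-ALL#2, 585 of 690 had an Il2ra UMI, with Dtx1 at 113 against 67.4 CPM. In WT only 11 of 150 gated cells had one; their median was 32881 UMIs against 5752, their Hes1 62.9 against 5.98 CPM and their Tcrg-C2 303 against 27.5 CPM. In PL, the 217 cells with a Cpa3 UMI had 411 CPM of Tcrg-C2 against 218 in the other 332, and 259 CPM of Tal1 against 317. Cells with a UMI of a gene are deeper on average, and the part of depth in these splits was not tested.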
